A study of Mus musculus with 27 samples.

Results

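The fibrillar collagens described here are 8 genes, Col1a1, Col1a2, Col3a1, Col5a1, Col5a2, Col5a3, Col11a1 and Col24a1, taken from the 54532 genes of the expression table by their symbols. They were measured by RNA sequencing in the tibialis anterior, a muscle of the lower leg, of male C57BL/6 mice aged 8 weeks, after volumetric muscle loss (VML) in which 40% of the muscle was excised. The 27 samples comprised 5 uninjured controls (C) and 5, 6, 6 and 5 muscles taken 3, 7, 14 and 21 days after injury (D3, D7, D14 and D21). The public record calls the excision unilateral and the study's methods call it bilateral, which the sample labels do not settle, and no label says whether replicates were separate mice, so p-values measure only the spread between these samples. The labels name no transgene and no drug in any group.

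Fibrillar collagens form the rope-like fibrils that give connective tissue its tensile strength. Each molecule is a triple helix of 3 chains, and the helix requires the small residue glycine at 1 position in every 3. Collagen I, built from Col1a1 and Col1a2 chains, is the main fibril of tendon and of the connective tissue around muscle fibres, collagen III (Col3a1) is a chain of more pliable tissue and of early wounds, collagen V (Col5a1, Col5a2 and Col5a3) is a minor component that helps fibrils start and limits their width, collagen XI (Col11a1) does so in cartilage and tendon, and collagen XXIV (Col24a1) is a minor chain known from developing bone. In skeletal muscle these mRNAs come mainly from fibroblasts and fibro-adipogenic progenitors rather than from muscle fibres.

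The glycine repeat separates the members by structure and is shown for 4 of them, with the GGN codon of glycine that opens each triplet of codons in capitals and the other codons, some of which are also GGN, in lower case. Each line gives, 5′ to 3′, the first 54 bases of the longest unbroken stretch in which 1 codon in every 3 is GGN, in the longest coding sequence of the gene in GENCODE M21.
Col1a1: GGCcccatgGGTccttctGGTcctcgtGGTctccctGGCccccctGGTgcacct
Col3a1: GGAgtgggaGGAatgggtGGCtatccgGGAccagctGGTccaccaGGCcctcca
Col5a3: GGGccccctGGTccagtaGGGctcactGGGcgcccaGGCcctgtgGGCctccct
Col24a1: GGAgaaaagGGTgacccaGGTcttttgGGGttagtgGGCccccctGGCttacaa
This stretch ran for 338 triplets of codons in Col1a1, 339 in Col1a2, 344 in Col3a1, 338 in Col5a1, 339 in Col5a2, 337 in Col5a3 and 338 in Col11a1. Each of these genes had 2 stretches of at least 10 triplets, 353 to 357 triplets in all. In Col24a1 the longest stretch was 216 triplets, and its repeat was divided into 3 stretches of at least 10 triplets, 327 triplets in all. The coding sequences had 4359 bases in Col1a1, 4392 in Col3a1, 5514 in Col5a1 and 5199 in Col24a1.

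The genes lay on 6 chromosomes, with coordinates from the expression table that were the same as those of GENCODE M21 on GRCm38. Col1a1 (ENSMUSG00000001506) spanned chr11:94936224-94953042 and Col1a2 (ENSMUSG00000029661) chr6:4504814-4541544. Col3a1 (ENSMUSG00000026043, chr1:45311538-45349706) and Col5a2 (ENSMUSG00000026042, chr1:45374321-45503282) were neighbours on opposite strands. Col5a1 (ENSMUSG00000026837) spanned chr2:27886425-28039514, Col5a3 (ENSMUSG00000004098) chr9:20770050-20815067, Col11a1 (ENSMUSG00000027966) chr3:114030540-114220718 and Col24a1 (ENSMUSG00000028197) chr3:145292472-145552011. Exons of Col5a1 shared 99 and 113 bases with the opposite-strand transcripts 2810430I11Rik and Gm13372, which the non-directional libraries cannot separate from it, and these reached at most 0.286 and 0.478 FPKM in any sample.

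The 250 bases before the RefSeq start of transcription were found for 6 of the 8 genes in the RefSeq promoter table (GRCm38.p6), and those of Col1a1 and Col5a2 were not analysed here. Both strands were searched for the GC box GGGCGG, the CCAAT box, the letters TATAAA of the TATA box and the letters TGANTCA of the AP-1 site, and matches are in capitals. Col3a1 and Col5a1, which rose together below, and Col24a1, which did not rise with them, are shown on their coding strands.
Col3a1 (chr1:45311288-45311537, + strand): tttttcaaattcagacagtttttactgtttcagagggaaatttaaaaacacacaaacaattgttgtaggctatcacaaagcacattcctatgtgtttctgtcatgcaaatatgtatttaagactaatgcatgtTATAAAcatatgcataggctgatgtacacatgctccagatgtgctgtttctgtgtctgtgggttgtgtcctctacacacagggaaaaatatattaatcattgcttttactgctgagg
Col5a1 (chr2:27886175-27886424, + strand): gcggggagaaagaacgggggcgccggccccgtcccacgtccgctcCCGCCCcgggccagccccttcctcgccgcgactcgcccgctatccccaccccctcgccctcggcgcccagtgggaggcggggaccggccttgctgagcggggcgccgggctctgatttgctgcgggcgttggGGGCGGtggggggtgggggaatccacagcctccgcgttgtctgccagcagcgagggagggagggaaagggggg
Col24a1 (chr3:145292222-145292471, + strand): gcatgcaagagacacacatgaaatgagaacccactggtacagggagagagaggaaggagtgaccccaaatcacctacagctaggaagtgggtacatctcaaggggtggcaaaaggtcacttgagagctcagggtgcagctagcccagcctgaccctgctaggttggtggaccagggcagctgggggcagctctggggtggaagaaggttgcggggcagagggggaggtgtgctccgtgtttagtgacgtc
The Col3a1 window held the letters TATAAA 1 time, at position -117 from the start, 0 CpG dinucleotides and 35.2% G and C. The Col5a1 window held 2 GC boxes, 28 CpG and 76.4% G and C, and the Col24a1 window had 3 CpG, 58% G and C and no match. Col5a3, Col11a1 and Col1a2 held 2 GC boxes and 1 CCAAT each, the Col1a2 window (chr6:4505368-4505617) lying inside the gene span given above with 127 bases in exons of GENCODE M21, and AP-1 letters were found in none of the 6. Among the 32851 promoters of the table, 32.74% held a GC box, 33.85% a CCAAT box, 12.37% the letters TATAAA and 6.749% the AP-1 letters, and the median was 6 CpG.

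Expression was deposited as FPKM (fragments per kilobase of gene, scaled to a number of reads for each sample), a level per length. Multiplying FPKM by gene length gave whole reads, which totalled 14376395 to 24436763 per sample. The number to which FPKM was scaled was not this total, but on average 0.782 times the total in C and 1.25 times at D3. Over all genes, 9 samples lay nearer to the mean of another group than to that of their own, among them D3 replicate 5 (nearest to D7) and D7 replicate 5 (nearest to D3). By group they numbered 0 in C, 1 at D3, 3 at D7, 3 at D14 and 2 at D21. The others at D7 were replicate 3, nearest to C, and replicate 6, nearest to D21. The summed FPKM of 5 macrophage markers was 52.1 in D3 replicate 5 against 139 to 329.5 in the other D3 samples, and 322 in D7 replicate 5 against 7.96 to 69.8 in the other D7 samples. D7 replicate 6 had a summed FPKM of 725 for 3 Schwann cell markers, against at most 145 in any other sample. The muscle label fitted the markers, since 6 muscle fibre genes summed to between 53107 and 67511 FPKM in C.

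The main collagen of the muscle, collagen I, was higher than in C at every time point. Its call at D21 was lost when some single libraries were left out, as given below. In C, Col1a1 stood at 36.8, 31.8, 12.7, 18.9 and 18.3 FPKM. At D3 it stood at 207, 272, 294, 311 and 397 FPKM, at D7 it ranged from 110 to 583 (median 276) and at D14 from 61.9 to 260.3 (median 156). Every injured sample up to D14 was above every C sample, and the D7 group was the widest. At D21 Col1a1 stood at 60.5, 66.6, 80.6, 39.4 and 68.5 FPKM, of which the lowest, replicate 4, was still above the highest C sample. Group means were 23.7 ± 10.1 (SD, n = 5) in C, 297 ± 68.8 (n = 5) at D3, 305 ± 166 (n = 6) at D7, 148 ± 76.1 (n = 6) at D14 and 63.1 ± 15.2 (n = 5) at D21, so the mean was 12.5-fold that of C at D3, 12.9-fold at D7, 6.22-fold at D14 and 2.66-fold at D21. On the log2(FPKM + 1) scale, which understates the change of low genes, the difference from C was 3.66 (SE 0.39) at D3, 3.54 (0.37) at D7, 2.50 (0.37) at D14 and 1.44 (0.39) at D21. The limma test gave adjusted p = 2.72e-07, 1.97e-06, 0.000177 and 0.0392, with Benjamini-Hochberg adjustment over all 14630 genes tested.

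**Figure D1:**
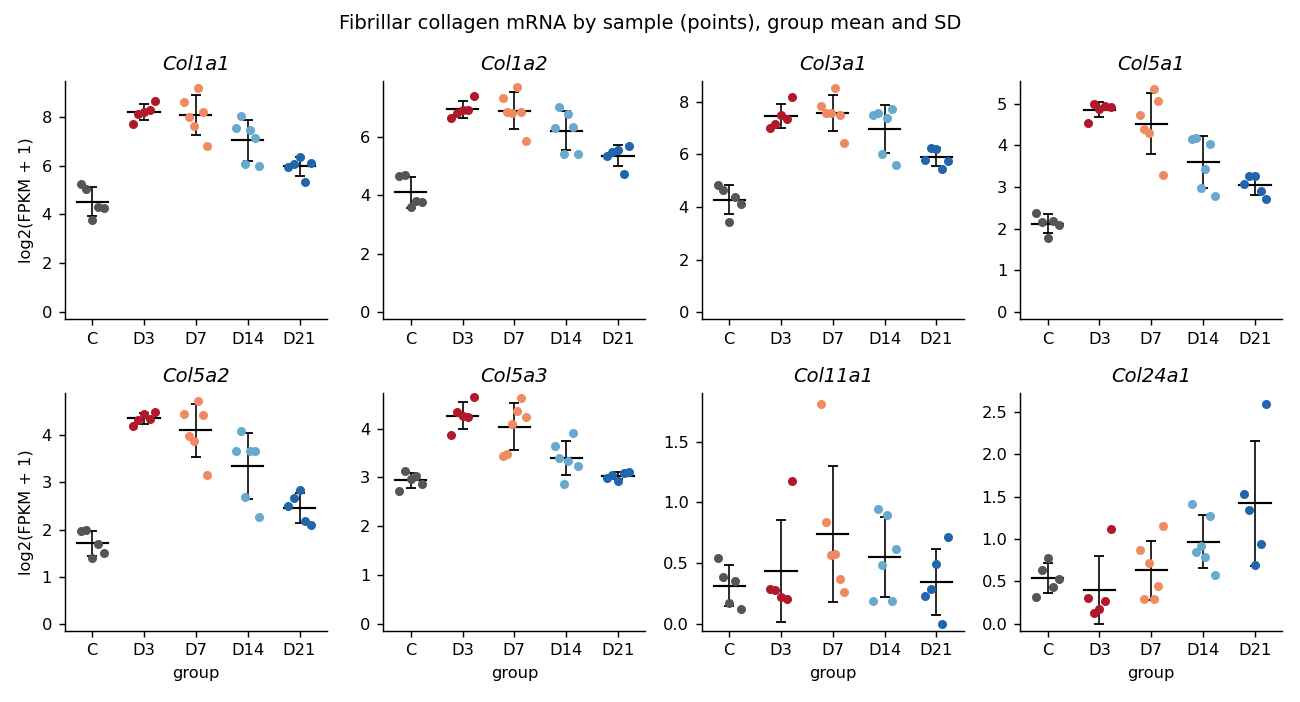
Level of each fibrillar collagen in each sample, as log2(FPKM + 1) on the vertical axis, by group on the horizontal axis (C, uninjured; D3 to D21, days after VML). Points are samples, the long bar is the group mean and the error bar the SD. Col1a1, Col1a2, Col3a1, Col5a1 and Col5a2 have no injured sample inside the range of C, while Col11a1 and Col24a1 overlap C at every time point.

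Col1a2, the other chain of collagen I, stood at 24.1, 24.8, 11.1, 13.1 and 12.6 FPKM in C and at 98.7, 111, 119, 119 and 166 FPKM at D3. It ranged from 57.2 to 207 FPKM (median 114) at D7 and from 41.2 to 129 FPKM (median 78.9) at D14. At D21 it stood at 39.7, 43.3, 45.6, 25.7 and 50.04 FPKM. The lowest injured sample, at 25.7 FPKM, was just above the highest C sample at 24.8. The difference from C was 2.83 (SE 0.32) at D3, 2.79 (0.30) at D7, 2.10 (0.30) at D14 and 1.25 (0.32) at D21 in log2(FPKM + 1), with limma adjusted p = 5.37e-07, 2.1e-06, 0.000137 and 0.0284. The table gives Col1a2 a gene length of 12426 bases while the transcript with its longest coding sequence has 5348, so its FPKM is low for its reads, and comparisons of its level with other members depend on that length. The corresponding lengths were 6563 and 5930 bases for Col1a1, 9816 and 5564 for Col3a1, 9591 and 6625 for Col5a2 and 12744 and 7667 for Col11a1.

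Col3a1, which forms collagen III, was also higher than in C at every time point, with the same limit at D21. It stood at 27.3, 23.9, 9.72, 19.7 and 16.4 FPKM in C and at 128, 140.0, 179, 163 and 291 FPKM at D3. It ranged from 84.9 to 368 FPKM (median 187) at D7 and from 46.7 to 209.7 FPKM (median 172) at D14, and stood at 54.2, 75.02, 73.2, 42.3 and 53.2 FPKM at D21. The highest D3 value belonged to replicate 5, and no injured sample overlapped C. The difference from C was 3.16 (SE 0.38) at D3, 3.29 (0.37) at D7, 2.68 (0.37) at D14 and 1.61 (0.38) at D21 in log2(FPKM + 1), with limma adjusted p = 1.24e-06, 2.11e-06, 9.75e-05 and 0.0194. Leaving out each library in turn moved these differences to between 2.95 and 3.30, 3.07 and 3.52, 2.47 and 2.96, and 1.40 and 1.75.

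Of the collagen V chains, Col5a1 and Col5a2 were called higher than in C up to D14 and Col5a3 up to D7. Col5a1 stood at 4.23, 3.46, 2.43, 3.59 and 3.27 FPKM in C and at 22.3, 30.9, 28.5, 29.8 and 29.4 FPKM at D3. It ranged from 8.70 to 40.1 FPKM (median 22.7) at D7 and from 5.87 to 17.1 FPKM (median 12.6) at D14, and stood at 7.37, 8.58, 8.598, 6.47 and 5.59 FPKM at D21. All injured samples were above all C samples. The difference from C was 2.74 (SE 0.29), 2.40 (0.28) and 1.47 (0.28) at D3, D7 and D14 in log2(FPKM + 1), with limma adjusted p = 2.57e-07, 3.02e-06 and 0.00112. At D21 it was 0.92 (0.29), with adjusted p = 0.0735, and did not pass although the groups did not overlap.

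Col5a2, the second chain of the common form of collagen V, stood at 2.93, 2.97, 1.63, 2.24 and 1.84 FPKM in C and at 17.2, 19.1, 21.01, 19.3 and 21.4 FPKM at D3. It ranged from 7.95 to 25.7 FPKM (median 17.7) at D7 and from 3.83 to 16.1 FPKM (median 11.7) at D14, and stood at 4.64, 5.38, 6.12, 3.53 and 3.29 FPKM at D21. Its D3 samples were close together, with a mean of 19.6 ± 1.68 FPKM (SD, n = 5), and no injured sample overlapped C. The difference from C was 2.65 (SE 0.28), 2.39 (0.27) and 1.63 (0.27) at D3, D7 and D14, with limma adjusted p = 2.57e-07, 2.11e-06 and 0.000372, and 0.75 (0.28) at D21, with adjusted p = 0.134.

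Col5a3, the chain of a less common form of collagen V, stood at 5.58, 7.71, 6.78, 7.18 and 6.30 FPKM in C, above Col5a1 and Col5a2 in each C sample. At D3 it stood at 13.6, 19.2, 18.1, 17.8 and 23.96 FPKM, at D7 it ranged from 9.87 to 23.7 FPKM (median 16.99) and at D14 from 6.30 to 14.1 FPKM (median 9.35). At D21 it stood at 6.94, 7.34, 6.66, 7.56 and 7.68 FPKM, within the range of C. The difference from C was 1.33 (SE 0.20) at D3 and 1.10 (0.19) at D7, with limma adjusted p = 1.29e-05 and 0.000248. It was 0.46 (0.19) at D14, with adjusted p = 0.0853, and 0.10 (0.20, 95% interval -0.31 to 0.51) at D21, with adjusted p = 0.818. Without D14 replicate 3, the D14 difference was 0.56 and passed, with adjusted p = 0.0333.

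Col11a1 and Col24a1 were expressed at a low level, and did not pass the test against C at any time point. Col11a1 reached 0.5 FPKM in 7 of the 27 samples and had 0 to 860 reads. It stood at 0.454, 0.310, 0.127, 0.280 and 0.0858 FPKM in C, and at 0.218, 0.216, 0.167, 0.155 and 1.26 FPKM at D3, where only replicate 5 was above C. It ranged from 0.201 to 2.51 FPKM (median 0.484) at D7 and from 0.141 to 0.921 FPKM (median 0.465) at D14, and stood at 0.172, 0.218, 0.407, 0 and 0.640 FPKM at D21. The highest of all samples was D7 replicate 1 with 860 reads, and the listed 0 at D21 allows up to 3 reads, or 0.0157 FPKM. The difference from C was 0.12 (95% interval -0.36 to 0.60), 0.42 (-0.04 to 0.88), 0.24 (-0.22 to 0.70) and 0.03 (-0.45 to 0.51) in log2(FPKM + 1) at D3, D7, D14 and D21, with limma adjusted p = 0.714, 0.153, 0.466 and 0.964.

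Col24a1 had its highest group mean at D21, unlike the other members. It stood at 0.246, 0.557, 0.716, 0.352 and 0.439 FPKM in C and at 0.239, 0.0963, 0.129, 0.202 and 1.17 FPKM at D3, where 4 samples were below all of C and replicate 5 was above all of C. It ranged from 0.222 to 1.23 FPKM (median 0.5004) at D7 and from 0.490 to 1.67 FPKM (median 0.844) at D14, and stood at 1.89, 1.53, 0.618, 0.917 and 5.04 FPKM at D21. Of the D21 samples 4 were above all of C, and the highest, replicate 5, stood well above the next at 1.89 FPKM. The gene had 12 to 429 reads per sample. The difference from C was -0.14 (SE 0.26), 0.09 (0.25), 0.43 (0.25) and 0.88 (0.26) in log2(FPKM + 1) at D3, D7, D14 and D21, with limma adjusted p = 0.699, 0.814, 0.218 and 0.0550. Without D21 replicate 5 the D21 difference was 0.59.

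The counts of members called in each comparison are best read against the share of all genes called. At D3, 6 of 8 members were called higher and 0 lower, in a comparison in which 23.4% of the genes tested were called higher and 19.8% lower. At D7 the count was again 6 higher and 0 lower (15% of genes higher, 14.4% lower) and at D14 it was 5 higher and 0 lower (9.02% of genes higher, 11.3% lower). At D21 it was 3 higher and 0 lower (1.74% of genes higher, 1.69% lower), these being Col1a1, Col1a2 and Col3a1. The median difference of the 8 members from C was 2.69, 2.40, 1.55 and 0.90 in log2(FPKM + 1), beside 0.01, 0.03, 0.02 and 0.01 over all genes tested. The 4 comparisons share the same 5 C samples. Members whose samples lay wholly above C numbered 6 at D3 (19.8% of genes), 6 at D7 (7.25%), 5 at D14 (7.67%) and 5 at D21 (5.26%).

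**Figure D2:**
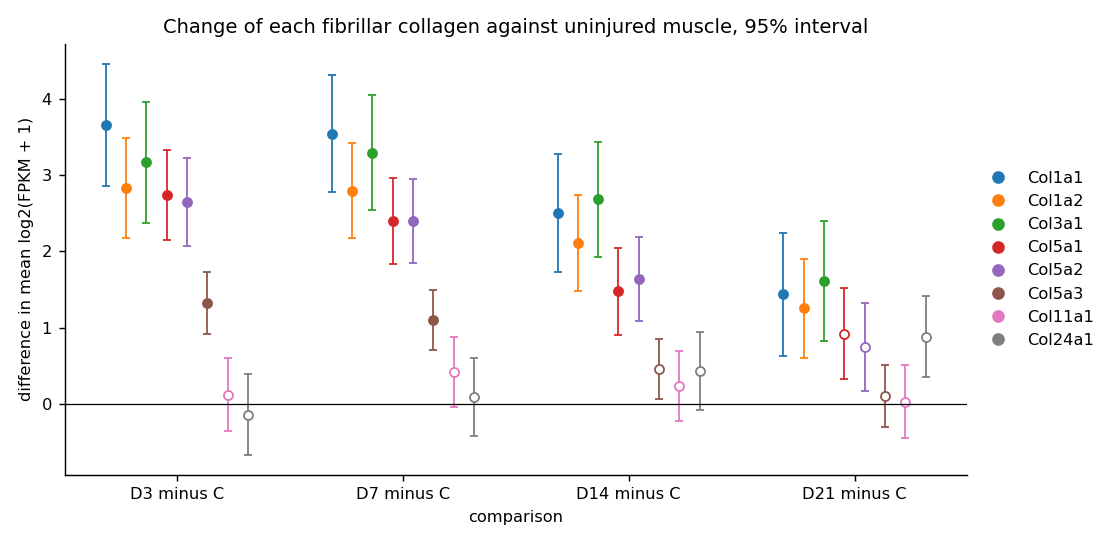
Difference of each fibrillar collagen from C in mean log2(FPKM + 1), on the vertical axis, at each time point. Points are limma estimates, bars are 95% intervals, and filled points passed an adjusted p of 0.05. The differences of Col1a1, Col1a2, Col3a1, Col5a1 and Col5a2 are between 2.65 and 3.66 at D3 and between 0.75 and 1.61 at D21, whereas Col24a1 goes from -0.14 to 0.88.

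The count at D21 rested on single libraries. It was 0 without C replicate 3, C replicate 5 or D21 replicate 2, and 1 without C replicate 4, D21 replicate 1 or D21 replicate 5. It was 4 without D3 replicate 5 or D21 replicate 4 and 5 without D7 replicate 6, and without both D3 replicate 5 and D7 replicate 5 it was 4, with Col24a1 at adjusted p = 0.0386. The differences of Col1a1, Col1a2 and Col3a1 stayed between 1.12 and 1.75 when any library was left out, and Col1a1 also did not pass without D21 replicate 3 (limma adjusted p = 0.0684). With quantile normalization, a common sum of FPKM or the sample's own read total in place of the deposited scaling, 0 members were called at D21. With no filter on low values 1 was called. Other settings raised the count, to 4 with a pseudocount of 0.1, 4 with voom weights and 5 with only the 2 groups compared. With the replicate number or letter as a block it was 6. The counts at D3 and D7 stayed at 6, and that at D14 at 5 or 6, when any single library or both replicates 5 of D3 and D7 were left out.

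Between consecutive time points no member was called by limma. From D3 to D7 the members' differences lay between -0.34 and 0.30 in log2(FPKM + 1), 0 members had an unadjusted p under 0.05, and 0.0478% of genes were called in either direction. This background rested on 2 libraries. The genes called numbered 7 of 14630 with all samples, 730 without D3 replicate 5, 1792 without D7 replicate 5 and 2265 without both. The members called stayed at 0 in each case. From D7 to D14 they were -1.04 for Col1a1, -0.69 for Col1a2, -0.61 for Col3a1, -0.92 for Col5a1, -0.76 for Col5a2 and -0.64 for Col5a3, with 5 members at an unadjusted p under 0.05 (0.335% of genes called). Without D7 replicate 6, Col5a1 was called, at -1.17 with limma adjusted p = 0.0138. From D14 to D21 Col1a1 changed by -1.07, Col3a1 by -1.07 and Col5a2 by -0.89, with 4 members at an unadjusted p under 0.05, in a comparison with 0% of genes called. With voom weights on the whole reads 0 members were called in each of these 3 comparisons.

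From D3 to D21, 6 members fell and 1 rose, in a comparison in which 16.2% of genes were called lower and 9.23% higher. Col1a1 fell by 2.22 (SE 0.39), Col5a2 by 1.90 (0.28), Col5a1 by 1.82 (0.29), Col1a2 by 1.58 (0.32), Col3a1 by 1.55 (0.38) and Col5a3 by 1.23 (0.20) in log2(FPKM + 1), with limma adjusted p between 5.59e-05 and 0.00428. In each of these 6 all D21 samples were below all D3 samples (12.2% of genes). Col24a1 rose by 1.02 (SE 0.26), with adjusted p = 0.00525 and 3 of 5 D21 samples above all D3 samples. Without D21 replicate 5 it rose by 0.73, with adjusted p = 0.0179, and without D3 replicate 5 by 1.199, with adjusted p = 0.00125. Col11a1 differed by -0.09 (95% interval -0.57 to 0.39).

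The make-up of fibrillar collagen mRNA changed along with its amount. The summed FPKM of the 8 members was 73.4 ± 24.2 (SD, n = 5) in C, 667 ± 164 (n = 5) at D3, 696 ± 322 (n = 6) at D7, 403 ± 182 (n = 6) at D14 and 185 ± 37.3 (n = 5) at D21. In reads, the members took a median of 0.0468% of a library in C and 0.765% at D3. The scaling of the deposited FPKM between samples does not enter this share of reads. Col1a1 made up 31.5% ± 3.30 of the summed FPKM in C, 44.5% ± 2.02 at D3, 42.4% ± 4.58 at D7, 36.1% ± 4.09 at D14 and 33.9% ± 2.15 at D21. Col3a1 made up 26.3% ± 3.25 in C, 26.6% ± 2.92 at D3, 29.8% ± 2.86 at D7, 34.6% ± 5.84 at D14 and 32.2% ± 3.25 at D21. Col5a3 made up 10.03% ± 3.55 in C and 2.81% ± 0.251 at D3, and Col24a1 0.737% ± 0.505 in C and 0.0481% ± 0.0449 at D3. These shares depend on the gene lengths in the table, which exceed the transcript lengths most for Col1a2, Col3a1 and Col11a1, so the order of the chains within a group is not read from them.

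**Figure D3:**
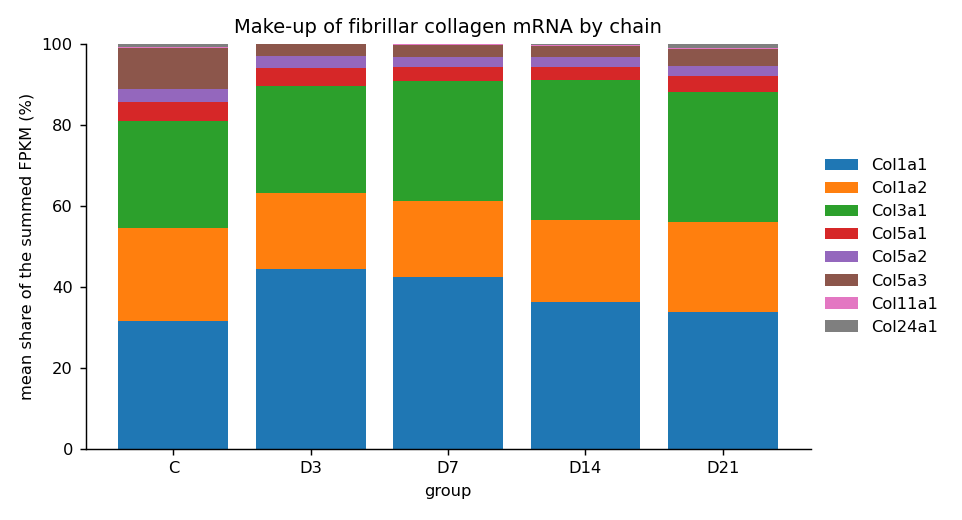
Mean share of each chain in the summed FPKM of the 8 fibrillar collagens (vertical axis, %), by group (horizontal axis). Bars are means over the samples of a group, without error bars. Col1a1 goes from 31.5% in C to 44.5% at D3 and 33.9% at D21, and Col5a3 from 10.03% in C to 2.81% at D3.

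Ratios between chains within a sample do not depend on the scaling between samples, and 5 of them were compared with C at each time point by exact permutation tests (two-sided, on log2 ratios with 0.1 added to each FPKM), with Benjamini-Hochberg adjustment over the 20 tests. Of these, 11 passed an adjusted p of 0.05. The ratio of Col1a1 to Col1a2 had a geometric mean of 1.36 in C, with samples from 1.15 to 1.53. It was 2.39 at D3 (adjusted p = 0.0227, exact), with samples from 2.10 to 2.61, and 2.27 at D7 (adjusted p = 0.0227, exact). It was 1.78 at D14 (adjusted p = 0.0271, exact), with 5 of 6 samples above all of C, and 1.54 at D21, which did not pass (adjusted p = 0.198, exact). The D14 value did not pass without C replicate 2, 3 or 4 (adjusted p = 0.0519, 0.0779 and 0.0519, exact). The level of this ratio depends on the gene length given to Col1a2, and its change between groups does not.

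Relative to Col1a1, Col3a1 was lower at D3 and at no other time point passed. Col3a1/Col1a1 was 0.832 in C and 0.595 at D3 (adjusted p = 0.0227, exact), with all 5 samples below C, and 0.702, 0.951 and 0.948 at D7, D14 and D21 (adjusted p = 0.208, 0.406 and 0.208, exact). The level of this ratio depends on the gene length given to Col3a1. Col5a1/Col1a1 was 0.156 in C and 0.0968, 0.0818 and 0.0857 at D3, D7 and D14 (adjusted p = 0.0289, 0.0216 and 0.0216, exact), and 0.119 at D21 (adjusted p = 0.208, exact). Thus Col1a1 mRNA rose by a larger factor than Col5a1 mRNA in the same samples up to D14. At D3 the adjusted p of Col5a1/Col1a1 was between 0.0577 and 0.0866 (exact) when any 1 of the 5 D3 samples was left out.

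Within collagen V, the ratio of the 2 main chains did not pass at any time point. Col5a2/Col5a1 was 0.684 in C and 0.699, 0.741, 0.822 and 0.624 at D3, D7, D14 and D21 (adjusted p = 0.794, 0.406, 0.208 and 0.345, exact). Its log2 difference from C was 0.03 (SE 0.11) at D3 and 0.26 (SE 0.16) at D14. Col5a3/Col5a1 was 1.97 in C and 0.653, 0.707, 0.866 and 1.0 at D3, D7, D14 and D21, lower at each (adjusted p = 0.0227, 0.0289, 0.0227 and 0.0289, exact). Its samples ranged from 1.31 to 2.72 in C and from 0.777 to 1.37 at D21, when Col5a3 itself was within the range of C, and the D7 sample with the highest ratio, 2.04, was within C. With 1 library left out, between 8 and 11 of the 20 tests passed, and Col5a3/Col5a1 at D21 had adjusted p = 0.0519 without C replicate 2 and 0.0529 without C replicate 3 by the same exact test. At D7 its adjusted p was between 0.0519 and 0.0577 (exact) without C replicate 2 or 3 or any of D7 replicates 1 to 5. Without both D3 replicate 5 and D7 replicate 5, 9 tests passed.

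**Figure D4:**
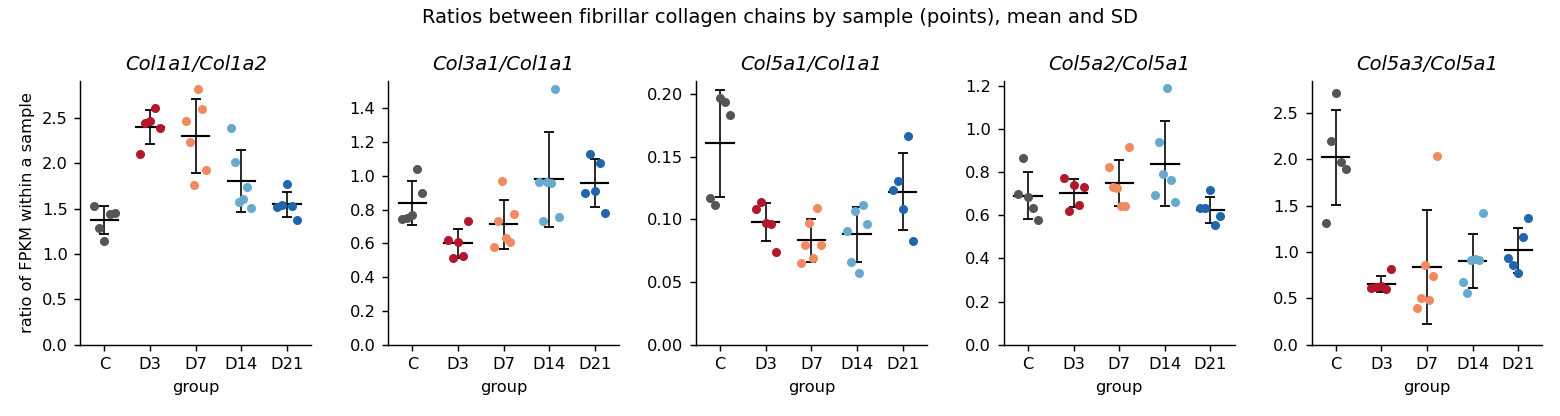
Ratio of the FPKM of 2 fibrillar collagen chains within each sample (vertical axis, no unit) by group (horizontal axis). Points are samples, the long bar is the mean and the error bar the SD. Col1a1/Col1a2 lies between 1.15 and 1.53 in C and between 2.10 and 2.61 at D3, and Col5a3/Col5a1 between 1.31 and 2.72 in C and between 0.599 and 0.815 at D3.

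Across the 27 samples, the members fell into a tight group and 3 others. These correlations of log2(FPKM + 1) describe samples that share time points and carry no p. Among Col1a1, Col1a2, Col3a1, Col5a1 and Col5a2, Pearson's r lay between 0.932 and 0.992, highest for Col1a1 with Col1a2. Col5a3 had r = 0.784 with Col1a1 and 0.840 with Col5a1, Col11a1 had 0.438 with Col1a1, and Col24a1 had -0.172 with Col1a1. Outside the family, the genes most like Col1a1 were Postn (r = 0.980), Fn1 (0.978) and Sparc (0.974), which encode periostin, fibronectin and osteonectin of the matrix. Col1a2 was most like the same 3 genes, Col3a1 most like Sparc (0.962), Fstl1 (0.962) and Ppic (0.959), Col5a1 most like Ccdc80 (0.976), Bgn (0.974) and Lrrc17 (0.968), and Col5a2 most like Bgn (0.976), Postn (0.975) and Fn1 (0.972). Col5a3 was most like Emilin2 (0.905), Lsp1 (0.904), a leukocyte protein gene, and Fbn1 (0.903), the gene of fibrillin.

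The low members were most like genes of another kind. Col11a1 was most like Thbs4 (r = 0.838) and Tnmd (0.814), both genes of tendon, and Spon1 (0.749). Spearman's correlation, which uses only the ranks of the samples, was 0.891, 0.902 and 0.525 in the same order. In D3 replicate 5, the sample in which Col11a1 was high at D3, Thbs4 stood at 97.2 and Tnmd at 27.9 FPKM, against at most 74.7 and 5.53 FPKM in the other D3 samples. In D7 replicate 1, the highest for Col11a1, Thbs4 stood at 137 FPKM, the highest of all samples, and in D21 replicate 4, where Col11a1 was listed at 0, it stood at 20.3 FPKM, the lowest. Thbs4 and Tnmd were picked for their correlation with Col11a1 over these same samples, so their values there follow in part from that choice. The summed FPKM of 5 tenocyte markers was 146 in D3 replicate 5, against 70.8 to 109 in the other D3 samples. It was 208 in D7 replicate 1, against 65.2 to 114 in the other D7 samples and 35.2 to 80.6 in C. Thbs4 and Tnmd are among these 5 and make up most of the sum in both samples, so the sum is not a separate observation. Scx, a tendon transcription factor gene of the same list, went the other way in D3 replicate 5, at 11.9 FPKM against 23.4 to 37.3 FPKM in the other D3 samples. Their part in the Col11a1 level was not tested. Chondrocyte markers summed to at most 2.30 FPKM in any sample and osteoblast markers to at most 4.64, while Col11a1 itself reached at most 2.51 FPKM. The part of chondrocyte and osteoblast markers was not tested either.

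Col24a1 was most like Gm12940 (r = 0.894), Rbm25 (0.879) and Son (0.869), of which the last 2 encode nuclear proteins of RNA splicing. In D21 replicate 5, the sample with the highest Col24a1, Gm12940 stood at 10.8, Rbm25 at 5.00 and Son at 18.8 FPKM, each the highest of all samples. Since the 3 genes were picked for their correlation with Col24a1 over these same samples, this shared peak follows in part from that choice. In the 4 D3 samples with low Col24a1, Rbm25 lay between 2.04 and 2.22 FPKM, and in D3 replicate 5 it stood at 2.76 FPKM.

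**Figure D5:**
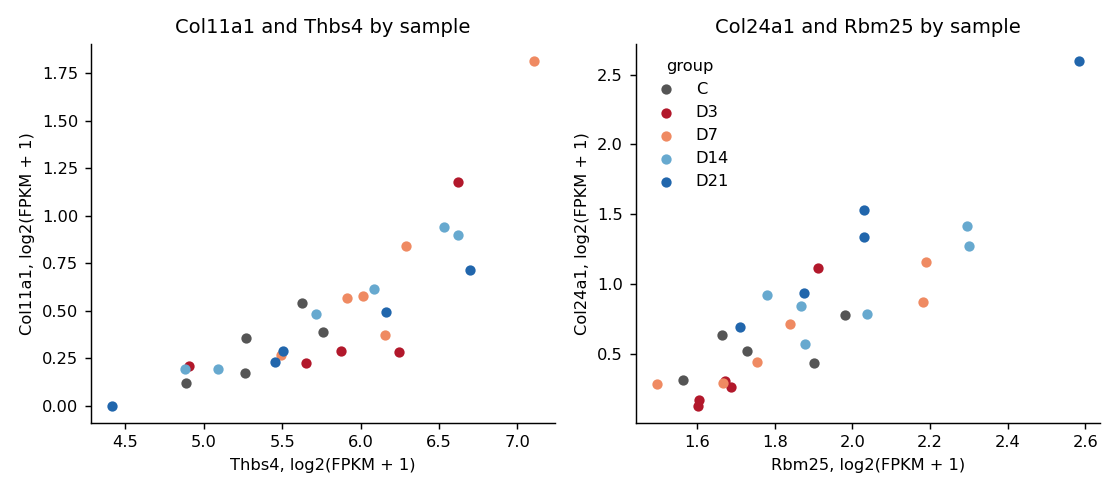
Col11a1 against Thbs4 (left) and Col24a1 against Rbm25 (right) in the 27 samples, all as log2(FPKM + 1), coloured by group. D7 replicate 1 is the highest for both genes on the left and D21 replicate 5 for both genes on the right.

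Genes that make, cross-link and bind these chains are given as lists by role, beside the share of all genes tested that was called higher than C, which was 23.4% at D3, 15% at D7, 9.02% at D14 and 1.74% at D21. Of 14 genes for hydroxylation, folding and secretion of collagen chains, 12 rose and 0 fell at D3 and 12 and 0 at D7. At D14 8 rose and 1 fell, where 11.3% of all genes were called lower, and at D21 1 rose and 0 fell. At D3 the largest were Fkbp10, a prolyl isomerase of the endoplasmic reticulum, from 2.04 ± 0.511 FPKM (SD, n = 5) in C to 23.2 ± 6.27 (n = 5), Serpinh1, the collagen chaperone HSP47, from 41.0 ± 8.12 to 211 ± 36.9, and Crtap, part of the prolyl 3-hydroxylase complex, from 5.25 ± 1.99 to 24.1 ± 4.61. The 1 that still passed at D21 was Fkbp10, at 5.02 ± 0.271 FPKM, with a difference of 1.0 (SE 0.27) and limma adjusted p = 0.0392. All 14 fell from D3 to D21, in a comparison in which 16.2% of genes were called lower.

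Of 12 genes for propeptide cleavage and cross-linking, 9 passed the filter on low values, of which 8 rose at D3, 8 at D7, 6 at D14 and 0 at D21, with 0 lower, beside the same 23.4%, 15%, 9.02% and 1.74% of all genes called higher. The cross-linking enzymes Lox, Loxl1 and Loxl3 led at D3, with differences of 3.09 (SE 0.29), 2.29 (0.30) and 2.04 (0.29) in log2(FPKM + 1). Lox went from 1.12 ± 0.192 FPKM in C to 17.99 ± 6.28 at D3. At D21 the median difference of these 9 genes of cleavage and cross-linking was 0.59.

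Of 10 fibril partners, 7 rose at D3, 7 at D7, 6 at D14 and 1 at D21, with 0 lower, where 23.4%, 15%, 9.02% and 1.74% of all genes were called higher. At D3 the largest differences were those of Fn1 (2.99, SE 0.29), which encodes fibronectin, Bgn (2.85, SE 0.32), which encodes the proteoglycan biglycan, and Col14a1 (1.90, SE 0.32), a collagen that binds fibril surfaces. At D21 the gene that passed was Comp, the cartilage oligomeric matrix protein of cartilage and tendon, at 3.66 ± 1.12 FPKM against 1.03 ± 0.680 in C (limma adjusted p = 0.0262). The fibrillar collagens outside the 8 were low. Col27a1 rose from 0.242 ± 0.0729 FPKM in C to 1.29 ± 0.268 at D3 (limma adjusted p = 1.05e-05) and also passed at D7 and D14, Col11a2 passed at D7 alone at 2.45 ± 2.01 FPKM (limma adjusted p = 0.0451), and Col2a1 was below the filter.

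Of 8 collagen receptors 7 were tested, and 4 rose at D3, 5 at D7, 3 at D14 and 1 at D21, with 0 lower, where 23.4%, 15%, 9.02% and 1.74% of all genes were called higher. Mrc2, an endocytic receptor for collagen fragments, rose by 1.76 (SE 0.21) at D3, and Ddr1, a collagen-binding kinase, by 0.73 (SE 0.13) at D3 and 0.52 (SE 0.13) at D21 (limma adjusted p = 0.0307). Of 5 genes of collagen degradation 4 were tested, and 4, 3, 3 and 1 rose at the 4 time points, led at D3 by Mmp14 at 30.5 ± 7.13 FPKM against 4.46 ± 0.732 in C. Mmp14, a membrane-bound protease that cuts fibrillar collagen, was the 1 that passed at D21, at 10.7 ± 1.87 FPKM (limma adjusted p = 0.0392). Of 8 regulators 7 were tested, and at D3 3 rose, Tgfb1 by 2.35 (SE 0.38), its receptors Tgfbr2 by 1.21 (SE 0.22) and Tgfbr1 by 0.70 (SE 0.20), while Tgfb2 fell by 0.61 (SE 0.16) and Smad3 by 0.63 (SE 0.21), in a comparison with 23.4% of all genes called higher and 19.8% lower. At D21 none of the 7 passed by limma.

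Markers of some cell types in the tissue moved with the collagens and those of others did not. In bulk samples fewer cells of a type and less RNA per cell cannot be told apart. Of 6 fibroblast or fibro-adipogenic progenitor markers, 4 rose at D3, D7 and D14 and 0 at D21, where 23.4%, 15%, 9.02% and 1.74% of all genes were called higher, and their summed FPKM was 84.2 to 105 in C, 142 to 259 at D3, 108 to 216 at D7, 84.4 to 202 at D14 and 92.0 to 132 at D21. Pdgfra, the receptor that marks these progenitors, stood at 0.942 ± 0.352 FPKM in C and 2.46 ± 0.411 at D3. Mfap5, a microfibril gene, stood at 4.37 ± 1.15 and 19.8 ± 5.13 FPKM, and Ly6a, which makes up most of the sum, at 61.8 ± 8.11 and 104 ± 22.5 FPKM. All 5 macrophage markers rose at D3, with a summed FPKM of 52.1 to 329.5 against 3.29 to 4.32 in C. At D3, where 19.8% of all genes were called lower, 4 of 6 muscle fibre markers fell, with a summed FPKM of 16819 to 37736. Of 4 tenocyte markers tested 1 rose at D3 (Scx), and of 4 markers of myofibroblasts or smooth muscle 1 rose (Acta2) and 1 fell (Myh11). Of 3 endothelial markers 0 rose and 1 fell (Kdr), beside the same 23.4% of all genes called higher and 19.8% lower. None of 3 Schwann cell markers passed at D3 by limma. The part of these cell types in the collagen differences was not tested.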

How the data were processed

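RNA of tibialis anterior muscles was sequenced from poly-T selected, non-directional libraries on an Illumina Novaseq instrument. Per the submitters' processing notes, reads were aligned with HISAT2 2.0.5 and counted per gene with featureCounts 1.5.0-p3, and the authors deposited FPKM for 54532 genes with gene lengths. The genome build is not given in the sources used here, but 98.33% of the 54409 genes found in GENCODE M21 (GRCm38) had the same start and end. FPKM times gene length gave whole reads (within 0.05 of a read, for 100% of the values above 0) in every sample, 14376395 to 24436763 in all (median 17398586), and the number of reads to which FPKM was scaled was 0.747 to 1.48 times this total, with means of 0.782 in C, 1.25 at D3, 1.18 at D7, 1.04 at D14 and 0.897 at D21. The deposited FPKM therefore already holds a scaling between samples, which the alternatives below replace.

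Groups were read from sample titles. A gene was tested if 5 or more samples had FPKM of 0.5 or above, which kept 14630 genes. Their log2(FPKM + 1) values from all 27 samples entered 1 limma model (version 3.58.1 in R 4.3.3) that estimated a mean for every group, with the variance prior following the mean level. Tests were two-sided with Benjamini-Hochberg adjustment over all genes, separately for every comparison, and 0.05 was the adjusted p for a call. Of the 8 members, 6 passed the filter in all samples, Col24a1 passed through 16 samples and Col11a1 through 7. For Col11a1 these were 0 in C, 1 at D3, 2 at D7, 3 at D14 and 1 at D21, so it entered the tests through injured samples alone. For Col24a1 they were 2, 1, 3, 5 and 5 in the same order of groups. Ratios were compared with exact permutation tests over all divisions of the samples. Scripts ran in Python 3.11.15 with pandas 2.3.3, numpy 2.4.6, scipy 1.17.1 and matplotlib 3.10.9, and were checked on simulated data.

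The members, gene lists and markers were chosen with earlier results of these data known. The genes named are all members, the 3 genes most correlated with each, and from each list up to 3 called genes with the largest difference from C at D3 and at D21, with further genes named for their relation to these. Alternatives were a pseudocount of 0.1, median-ratio scaling and quantile normalization, FPKM brought to 1 common sum in every sample (TPM), division by the sample's own read total, no filter or an FPKM minimum of 1, no variance trend, voom weights on the whole reads, only the 2 groups compared, a block for the replicate number or letter, and samples left out.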

Additional observations from a re-analysis of the deposited data

Results flagged for a closer look

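In 5 of the 40 sets of samples looked at (8 members in 5 groups), 1 sample stood apart from the others by Dixon's criterion, which chance gives in about 1 of 20. Col11a1 stood apart in D3 replicate 5 at 1.26 FPKM (next 0.218) and in D7 replicate 1 at 2.51 FPKM (next 0.790). Col24a1 stood apart in D3 replicate 5 at 1.17 FPKM (next 0.239) and in D21 replicate 5 at 5.04 FPKM (next 1.89). Col5a1 was low in D3 replicate 1, at 22.3 FPKM (next 28.5). 

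For 7 members the difference from C at D21 was itself different from that at D3 by limma's test of D21 against D3. The change in log2(FPKM + 1) was -2.22 for Col1a1, -1.58 for Col1a2, -1.55 for Col3a1, -1.82 for Col5a1, -1.90 for Col5a2, -1.23 for Col5a3 and 1.02 for Col24a1.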

How the results depend on the processing

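The members called at D3 against C, and at D21 against D3, did not change in number under any alternative, and those at D7 and D14 against C moved by at most 1 call. The count at D21 against C (3) was 1 with no filter on low values, 0 with quantile normalization, 0 with FPKM rescaled to a common sum and 0 with the sample's own read total as denominator. It was 4 with a pseudocount of 0.1, 4 with voom weights and 5 with only the 2 groups compared, and from 0 to 5 with 1 library left out. At D14 against D7 (0 called) leaving out 1 library gave 0 to 1, and the ratio tests passed (11) numbered 8 to 11. The common sum and the own read total moved the median of all genes at D3 against C to 0.62 and 0.40, beside 4.50 and 4.30 for Col1a1.

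Whether replicate numbers pair the samples was not settled. Of 51 pairs with the same number, 15 had deviations correlated above 0.1 (mean r 0.0217, beside -0.0033 for other pairs). Of 27 samples, 11 were closest to a sample of their own number, for which no rate by chance was computed. With the number or the letter as a replicate block, 6 members were called at D21 against C, and with the number 1 was called at D14 against D7. Exact sign-flips over pairs with the same number passed 0 of the 20 ratio tests, which 5 pairs cannot do.

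Directions that turned were all among differences that passed no test. Col11a1 at D3 against C was -0.11 with quantile normalization, -0.066 without both D3 replicate 5 and D7 replicate 5, and -0.066 to 0.18 with 1 library left out. Col11a1 at D21 against C was -0.033 with a pseudocount of 0.1, -0.10 with quantile normalization, -0.91 with voom weights, and -0.064 to 0.11 with 1 library left out. Col11a1 at D21 against D3 was 0.014 with quantile normalization, 0.095 without both replicates 5, and -0.18 to 0.095 with 1 library left out, and at D14 against D7 it was -0.28 to 0.030 with 1 library left out. Col24a1 at D3 against C was 0.066 with the common sum and 0.026 with the own read total, and at D7 against C it was -0.092 with quantile normalization and -0.015 to 0.16 with 1 library left out. At D7 against D3, Col1a1 was 0.00010 with quantile normalization, 0.12 and 0.089 with the number and the letter as block, and -0.34 to 0.14 with 1 library left out. Col1a2 was 0.081, 0.15 and 0.13 under the same settings, 0.088 without both replicates 5, and -0.20 to 0.17 with 1 library left out, and Col3a1 was -0.067 to 0.35. The log2 ratio of Col5a2 to Col5a1 at D3 was -0.032 without C replicate 5 and -0.0062 without D3 replicate 1. The cause of these changes was not tested, and the few reads of Col11a1 and Col24a1 limit what could be detected.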
